A study of Mus musculus with 2 samples.

Results

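In the spiral ganglion of mice with a floxed *Runx1* allele, many neurons with a very high level of *Calb2* RNA also held *Runx1* RNA, and these neurons are described here. They were chosen in the iCKO library as cells with *Lypd1* below 100 CPM, or 1 UMI (unique molecular identifier) per 10000,, *Calb2* of at least 10000 CPM, or 100 UMIs per 10000, and at least 1 *Runx1* UMI. The rule kept 149 of the 407 iCKO cells, out of 869 cells in both libraries of the series. They are called Runx1-positive Calb2-high iCKO neurons below. Because measured *Calb2*, *Lypd1* and *Runx1* chose them, the levels of these genes are given as a description only.

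They were set beside 3 other sets of cells. The Runx1-negative Calb2-high iCKO neurons were the 52 iCKO cells with the same *Lypd1* and *Calb2* thresholds and no *Runx1* UMI. The intermediate-Calb2 control neurons were 139 iCON cells with *Lypd1* under 1 and *Calb2* from 10 to under 100 UMIs per 10000. The Calb2-high control neurons were the 85 iCON cells that passed the *Lypd1* and *Calb2* thresholds, whatever their *Runx1*.

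The series profiled single cochlear spiral ganglion neurons with the 10x Genomics 3′ assay v3. Control (iCON) mice were Runx1-CreER/+; Ai14/+ and iCKO mice were Runx1-CreER/Runx1F; Ai14/+. The Ai14 allele (a Cre-dependent tdTomato reporter) and CreER, which tamoxifen activates, were thus shared by both genotypes, as were tamoxifen on postnatal day 1, harvest from both sexes between postnatal days 27 and 29 and a sort for tdTomato. There was 1 library per genotype, the number of animals behind each is not given in the sources used here, and cells are not replicates of a genotype, so no test was run. A sort on tdTomato keeps cells in which the *Runx1* driver was active when tamoxifen was given or whose ancestors carried the recombined reporter. Reads of a 3′ assay look alike whether or not an inner exon of *Runx1* has been removed, so a *Runx1* UMI does not show that the gene was intact.

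Runx1 is a runt-domain transcription factor that binds DNA together with its partner core-binding factor beta, encoded by *Cbfb*. Type I neurons of the spiral ganglion connect inner hair cells to the brainstem, and their subtypes Ia, Ib and Ic are told apart by graded levels of calcium-binding proteins and other markers. High *Calb2* (calretinin) with *Rxrg* and *Pcdh20* marks Ia, *Calb1* (calbindin) marks Ib, and *Lypd1* with *Pou4f1* marks Ic neurons, while *Runx1* is known from Ib and Ic neurons.

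*Runx1* lies on the minus strand of mouse chromosome 16 (GRCm38, 92601466 to 92826149). The promoter of its distal start is shown because the neurons were chosen by its RNA, and that of *Ntng1*, on the minus strand of chromosome 3 (109780040 to 110144011), because *Ntng1* had the highest ratio between the neurons with and without *Runx1* RNA. Each sequence runs 5′ to 3′ from 250 bases before to 50 bases after the start in RefSeq (build GRCm38.p6, mm10). Capitals mark the letters TGTGGT or TGCGGT, a core known from RUNX binding sites, searched on both strands, so that ACCACA or ACCGCA marks a match on the opposite strand.
Runx1 (chr16:92826025-92826324, minus strand): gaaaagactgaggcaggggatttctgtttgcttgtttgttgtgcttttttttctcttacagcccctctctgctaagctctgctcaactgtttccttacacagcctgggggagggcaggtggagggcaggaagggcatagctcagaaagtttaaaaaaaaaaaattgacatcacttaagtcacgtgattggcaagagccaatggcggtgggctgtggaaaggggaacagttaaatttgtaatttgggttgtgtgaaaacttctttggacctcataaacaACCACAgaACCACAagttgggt
Ntng1 (chr3:110143423-110143722, minus strand): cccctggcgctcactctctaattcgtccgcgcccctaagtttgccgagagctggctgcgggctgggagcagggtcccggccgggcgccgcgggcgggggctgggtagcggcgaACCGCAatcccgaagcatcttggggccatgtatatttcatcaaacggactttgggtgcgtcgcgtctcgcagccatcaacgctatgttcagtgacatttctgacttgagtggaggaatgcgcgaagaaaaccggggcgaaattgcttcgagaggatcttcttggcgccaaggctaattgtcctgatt
The distal *Runx1* start held 2 matches, both in the 50 bases after the start, and the other *Runx1* start (chr16:92697280-92697579) held 0. *Ntng1* held 1 match, upstream of its start. Of all 32851 promoters in the RefSeq table, 22.4% held at least 1 match. Among the genes ranked highest in the Runx1-positive over the Runx1-negative Calb2-high iCKO neurons, 9 had 11 promoters in the table, of which 2 held a match (*Car12* and *Ntng1*), and among those ranked lowest 10 had 13, of which 3 did (*Ebf1*, *Tanc1* and *Zfp804a*). A match of these letters describes the window and is not a measured binding site.

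The median depth was 34063 UMIs in the Runx1-positive Calb2-high iCKO neurons (range 21887 to 49117), 37442 in the Runx1-negative ones, 47778 in the intermediate-Calb2 control neurons and 55533 in the Calb2-high control neurons. No barcode was shared. By sex-linked RNA, *Xist* without any Y-linked gene was seen in 116 of the 149 Runx1-positive Calb2-high iCKO neurons, 47 of the 52 Runx1-negative, 51 of the 139 intermediate-Calb2 control and 55 of the 85 Calb2-high control neurons. Of 6 pan-neuronal genes, 5 were detected in at least 90% of the Runx1-positive Calb2-high iCKO neurons, as were 5 of 6 genes of type I neurons. Of 6 type II markers *Th* and *Etv4* were at 0, and the summed level of the list averaged 0.398 UMIs per 10000, against 0.400 in the intermediate-Calb2 control neurons. Of the 4 hair cell genes in the table *Otof* was at 0 and *Myo7a* was found in 13 cells, and the list averaged 0.0445. *Csf1r* of myeloid cells and *Cldn5* of endothelium, each the only gene of its list in the table, were at 0. *Cd79a*, the only gene of the B cell and erythroid list in the table, averaged 0.00356 with a highest value of 0.278. The 6 fibroblast or bone genes were all detected, and their summed level averaged 1.20, against 1.57 in the Runx1-negative, 1.75 in the intermediate-Calb2 control and 1.04 in the Calb2-high control neurons. *Col1a2*, a collagen gene of that list, had a log2 ratio of -0.86 against the intermediate-Calb2 control neurons, and the part of such RNA in the results was not tested. High *Calb2* was fixed by the rule, so these markers describe the cells as neurons and do not check that part of the name. The neurons held markers of more than 1 subtype, as described below, and no subtype name is used for them.

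*Runx1* RNA was found in a larger share of the Calb2-high neurons of the iCKO library than of those of the control. A *Runx1* UMI was found in 149 of 201 Calb2-high iCKO cells, or 74.1% (exact Clopper-Pearson interval 67.5 to 80.03%). In Calb2-high control cells it was found in 37 of 85, or 43.5% (32.8 to 54.7%), although these were sequenced more deeply. After each cell was thinned to 20000 UMIs the shares were 64.7% (57.6 to 71.3%) and 24.1% (15.4 to 34.7%). Among 19 cells of both libraries with at least 4 of 6 type II markers, 0 held a *Runx1* UMI at a median depth of 26966, which allows a share of up to 15.8%. They were looked at for free RNA but were not split by library, so they give no background for the iCKO library alone. Intervals here and below cover counting error only.

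Since the rule kept only cells with *Runx1* RNA, the level of *Runx1* in these neurons holds no zeros and is a description. They held 1 to 12 *Runx1* UMIs each with a median of 4, and 29 of them held 1. Their mean was 1.25 ± 0.826 UMIs per 10000 (SD over 149 cells), with a lowest value of 0.204, a median of 1.07 and a highest of 3.61. The mean was 1.07 ± 0.683 in the intermediate-Calb2 control neurons and 0.159 ± 0.26 in the Calb2-high control neurons, both with their cells at 0 included. The 37 Calb2-high control neurons with a *Runx1* UMI, which were kept in the same way, averaged 0.366 ± 0.282. Seen from *Runx1*, 149 of the 200 iCKO cells with *Runx1* RNA and low *Lypd1* were Calb2-high (74.5%, 67.9 to 80.4%), against 37 of 172 in the control (21.5%, 15.6 to 28.4%). No replicate stands behind either share.

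**Figure D1:**
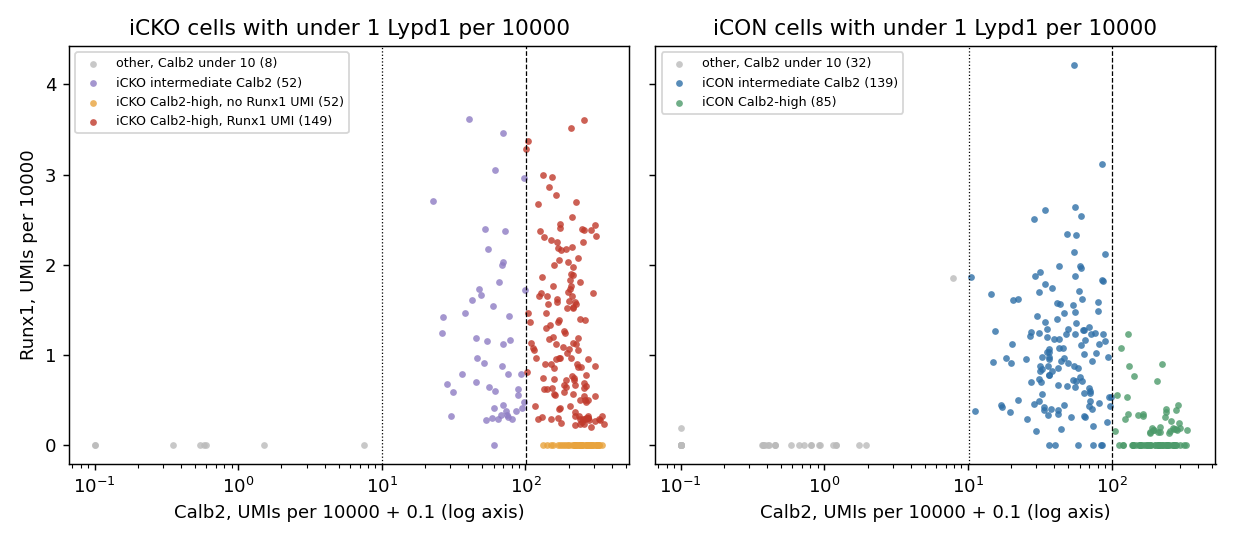
*Runx1* against *Calb2* in each cell with under 1 *Lypd1* UMI per 10000, both in UMIs per 10000, with *Calb2* on a log axis, for iCKO (left) and iCON (right). Dotted and dashed lines mark the *Calb2* thresholds of 10 and 100. In iCKO the 149 cells with *Runx1* RNA right of the dashed line reach *Runx1* levels up to 3.61, whereas the Calb2-high control cells end at 1.23.

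The thresholds cut through a continuous range of levels. The 3 neurons just inside the *Calb2* threshold had 100.1, 102.2 and 103.4 UMIs per 10000, and the 3 iCKO cells just outside had 98.9, 98.3 and 96.9. For *Lypd1* the 3 just inside had 0.681, 0.357 and 0.336, and the 3 just outside 1.37, 1.48 and 1.66. *Calb2* itself averaged 201 ± 56.9 UMIs per 10000 in the Runx1-positive Calb2-high iCKO neurons, 246 ± 52.3 in the Runx1-negative ones, 49.5 ± 21.4 in the intermediate-Calb2 control and 207 ± 58.1 in the Calb2-high control neurons.

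The first comparison across genes asked how Calb2-high iCKO neurons with *Runx1* RNA differed from those without it, within 1 library. The RNA profiles were close for most genes, with a central 95% of log2 ratios between -0.32 and 0.32. A gene was ranked if its mean reached 0.5 UMIs per 10000 and it was detected in at least 25% of cells of the same set, and log2 ratios were taken with a pseudocount of 0.05. Of 3637 ranked genes, 8 were at least 2-fold higher (0.22%) and 1 was at least 2-fold lower (0.0275%) in the neurons with *Runx1* RNA. The higher genes included the Ib marker *Calb1* and *Ntng1*, and the lower gene was the Ia marker *Rxrg*. These sets were not matched on *Calb2*. It was at 250 or more UMIs per 10000 in 33 of the 149 neurons with *Runx1* RNA and 23 of the 52 without it. The part of *Calb2* level in these ratios was not tested.

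*Calb1*, the calcium buffer that marks Ib neurons (chromosome 4, 15881264 to 15908064, plus strand), was among the 8. In the Runx1-positive Calb2-high iCKO neurons its level ran from 0 through a median of 1.09 to 7.96 UMIs per 10000 and averaged 1.79 ± 1.98. In the Runx1-negative neurons the median was 0, the highest value 1.18 and the mean 0.101 ± 0.278. The ranges overlap at the low end, but most high values are in cells with *Runx1* RNA. The log2 ratio was 3.61, and the interval of the log2 ratio of summed UMIs (906 and 21) was 3.40 to 4.72. After thinning, 69.1% of the neurons with *Runx1* RNA (61.04 to 76.4%) and 13.5% of those without it (5.59 to 25.8%) held a *Calb1* UMI. At full depth 0 of the 19 cells with type II markers did, which allows a share of up to 15.8%, above the 13.5%.

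*Ntng1*, which encodes the axonal adhesion protein netrin-G1 and was listed with the Ic markers, had the highest ratio. In control cells *Ntng1* averaged 2.25 with *Lypd1* at 1 or more UMIs per 10000 and 1.95 in the intermediate-Calb2 set. It thus hardly told these control cells apart, and its presence is not read as an Ic trait. Its level ran from 0 through a median of 0.845 to 3.57 UMIs per 10000 in the neurons with *Runx1* RNA, with a mean of 1.03 ± 0.945. Without *Runx1* RNA the median was 0, the highest value 0.935 and the mean 0.0265 ± 0.136, from 6 UMIs in 52 cells. The log2 ratio was 3.81, below the 3.89 to 6.47 of the summed UMIs because the pseudocount lowers the ratio of a gene that is near 0 in 1 set. Of the 19 cells with type II markers 47.4% held an *Ntng1* UMI, 78.9% an *Rxrg* UMI and 100% a *Slc17a6* UMI, and for these genes free RNA and RNA of those cells cannot be told apart.

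*Calb1* and *Ntng1* were largely found in the same neurons. Of the 149 Runx1-positive Calb2-high iCKO neurons, 98 held both, 15 held *Calb1* alone, 10 held *Ntng1* alone and 26 held neither. Of the 52 Runx1-negative neurons, 1 held both and 43 held neither. In the intermediate-Calb2 control neurons 102 of 139 held both and 2 held neither, and in the Calb2-high control neurons 4 of 85 held both and 50 held neither. These sets differ in depth. With cells thinned to 20000 UMIs, 86 of the 149 Runx1-positive neurons held both and 32 neither, against 77 and 6 of 138 intermediate-Calb2 control neurons and 0 and 66 of 83 Calb2-high control neurons. *Calb2* was fixed by the rule.

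The other genes at least 2-fold higher were *Slc17a6*, *Btbd9*, *Kcns3*, *Cpne9*, *1700026D08Rik* and *Cib2*. *Slc17a6*, the vesicular glutamate transporter VGLUT2, ran from 0 through a median of 0.282 to 5.62 and averaged 0.894 ± 1.22 UMIs per 10000, against 0.326 ± 0.664 without *Runx1* RNA (log2 ratio 1.33, interval 0.81 to 1.53). *Kcns3*, a modifier subunit of voltage-gated potassium channels, averaged 0.624 ± 0.558 against 0.228 ± 0.288 (1.28, 0.97 to 1.91). *Cpne9*, a copine, averaged 1.08 ± 0.737 against 0.426 ± 0.484 (1.24, 1.002 to 1.70). *Cib2*, a calcium- and integrin-binding protein, averaged 2.85 ± 1.73 against 1.36 ± 1.01 (1.04, 0.88 to 1.27). All of these overlap between the sets cell by cell, and each has cells at 0 among the neurons with *Runx1* RNA. The SDs over cells exceed or approach the differences of the means. Some of these ratios depended on the cells used. That of *Btbd9*, 1.32 over all cells, was 0.23 without 15 neurons of high *Btbd9* described below, 0.63 with *Calb2* of at least 150 UMIs per 10000 and -0.066 among cells with Y-linked RNA. In cells with high myelin RNA (90 and 35 cells) the log2 ratio of *Slc17a6* was 0.82 and that of *Cpne9* 0.96, both under 2-fold, and in cells with low myelin RNA (59 and 17 cells) they were 2.66 and 2.07. *1700026D08Rik* was at 0.88 in high-myelin and 0.97 in *Xist* cells, but at 1.51 in low-myelin and 2.04 in Y-linked cells. *Cib2* was at 0.95 in *Xist* and 0.99 in low-myelin cells, but at 2.31 in Y-linked cells. *Kcns3* was at 0.45 in Y-linked cells, of which 5 were Runx1-negative.

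On the lower side were the Ia markers *Rxrg* and *Pcdh20*. *Rxrg*, the retinoid X receptor gamma, ran from 0 through a median of 0.319 to 2.2 and averaged 0.408 ± 0.408 UMIs per 10000 in the neurons with *Runx1* RNA, against 0.912 ± 0.609 without it, a log2 ratio of -1.07 (interval -1.46 to -0.87). *Pcdh20*, a protocadherin, averaged 0.282 ± 0.371 against 0.517 ± 0.424, a log2 ratio of -0.77 (-1.28 to -0.52). *Hpcal1*, a neuronal calcium sensor, had a log2 ratio of -0.73 and *Ebf1*, an early B-cell factor family transcription factor, one of -0.62. Only *Rxrg* was past 2-fold, and it was not in *Xist* cells alone (-0.997) or in Y-linked cells alone (-0.72). At 1.5-fold, 17 genes were higher (0.467%) and 8 lower (0.22%).

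**Figure D2:**
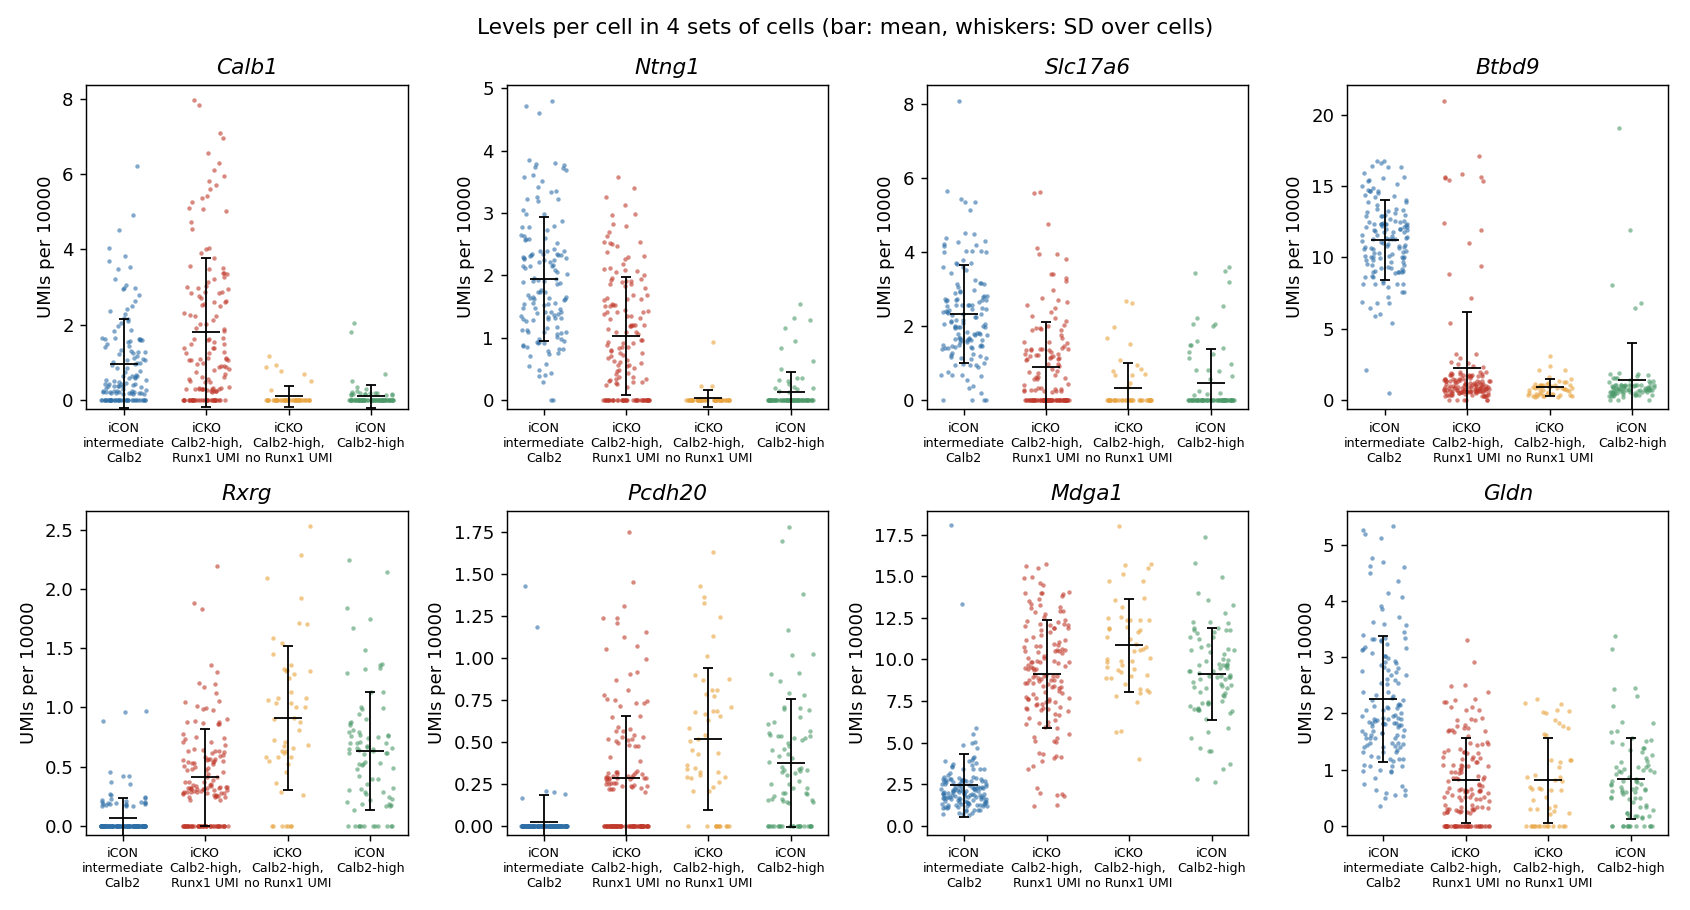
Level per cell, in UMIs per 10000, of 8 genes in the intermediate-Calb2 control, Runx1-positive and Runx1-negative Calb2-high iCKO, and Calb2-high control neurons. Each point is a cell, the bar is the mean and the whiskers are the SD over cells. *Calb1* and *Ntng1* of the Runx1-positive neurons spread over the range of the intermediate-Calb2 control neurons, whereas *Mdga1* and *Gldn* lie with the Calb2-high control neurons.

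Among the neurons with *Runx1* RNA, *Calb1* and *Ntng1* were higher in cells with more *Runx1* UMIs. Each neuron was thinned to 20000 UMIs and grouped by the *Runx1* UMIs that remained. *Calb1* averaged 0.144 UMIs per 10000 in the neurons with no *Runx1* UMI at full depth (exact Poisson interval 0.0807 to 0.238, 52 cells) and 0.684 (0.447 to 1.003, 19 cells) in those whose *Runx1* UMIs were lost by thinning. It averaged 1.32 with 1 *Runx1* UMI (34 cells), 1.95 with 2 (29 cells), 2.21 with 3 or 4 (42 cells) and 2.50 with 5 or more (25 cells). *Ntng1* averaged 0.0385, 0.395, 0.735, 1.24, 1.25 and 1.42 UMIs per 10000 in the same classes. *Rxrg* averaged 0.962 (0.782 to 1.17) with no *Runx1* UMI, and between 0.324 and 0.540 in the other classes with no order among them. In the 5 classes of neurons with *Runx1* RNA, *Slc17a6* averaged 0.789, 0.853, 0.983, 0.655 and 1.54, *Btbd9* 1.66, 2.65, 3, 1.76 and 2.16, and *Cpne9* 0.895, 0.956, 1.28, 1.15 and 0.880, with no steady order. *Cib2* averaged 2.11, 2.35, 2.47, 3.50 and 3.12, higher in the last 2 classes. *Kcns3*, at 0.5, 0.529, 0.586, 0.560 and 0.960, was higher in the last class alone, and *Pcdh20* averaged 0.474, 0.265, 0.276, 0.262 and 0.200. *Calb2* averaged 248 UMIs per 10000 with no *Runx1* UMI and 191 in the class with 5 or more, and the rule had used both genes.

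Across the 149 Runx1-positive Calb2-high iCKO neurons, with all cells at 20000 UMIs, Spearman's rho was 0.30 for *Runx1* with *Calb1*, 0.32 for *Runx1* with *Ntng1* and 0.43 for *Calb1* with *Ntng1*. These cells share a library and a depth, and the values describe that library. In 138 intermediate-Calb2 control neurons rho was 0.07 for *Runx1* with *Calb1*, 0.18 for *Runx1* with *Ntng1* and 0.06 for *Calb1* with *Ntng1*. In 83 Calb2-high control neurons, where *Calb1* and *Ntng1* are low, the values were 0.35, 0.23 and -0.11. At this depth a *Runx1* UMI remained in 130 of the 149, 113 of the 138 and 20 of the 83 cells, so the values of the 3 sets are not compared.

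**Figure D3:**
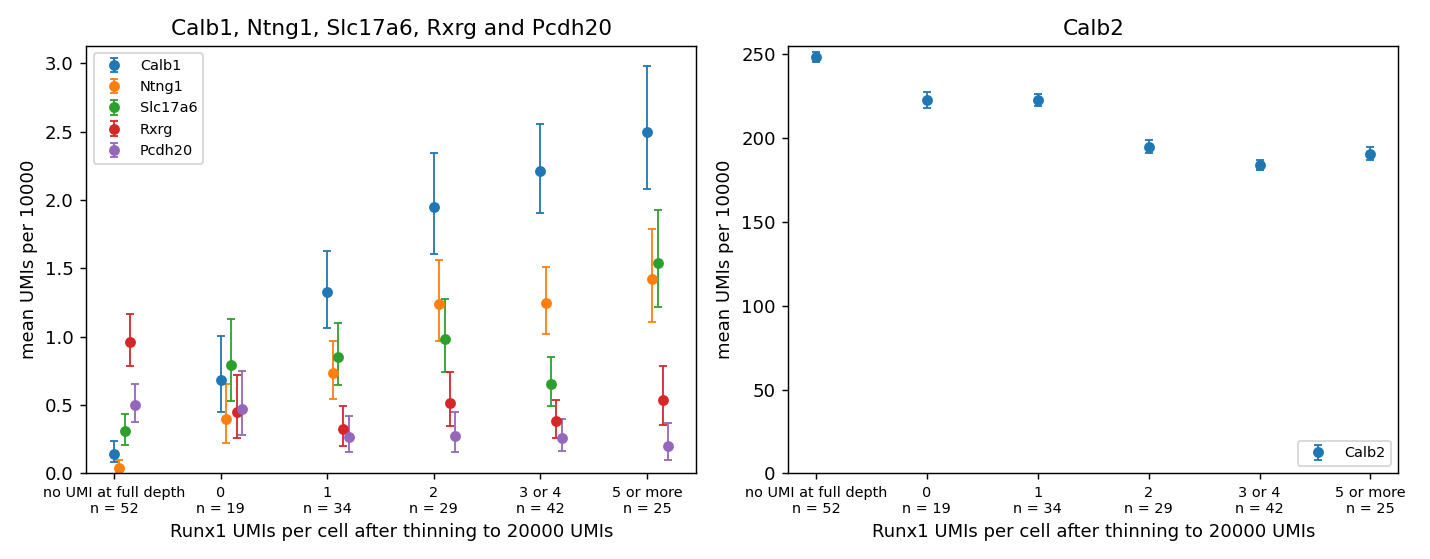
Mean level, in UMIs per 10000, against the number of *Runx1* UMIs left in a cell after thinning to 20000 UMIs, for Calb2-high iCKO neurons. The leftmost class held no *Runx1* UMI at full depth, points are means over the cells given under each class, and bars are exact Poisson intervals of the summed UMIs. *Calb1* goes from 0.144 to 2.50 and *Ntng1* from 0.0385 to 1.42 across the classes, and *Calb2* is highest, at 248, in the class without *Runx1* RNA.

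The next comparison, named in the rule, was with intermediate-Calb2 control neurons, of which 95.7% held a *Runx1* UMI. Of 3738 ranked genes, 12 were at least 2-fold higher (0.321%) and 20 at least 2-fold lower (0.535%), and the central 95% of log2 ratios ran from -0.62 to 0.49. At 1.5-fold the counts were 58 higher (1.55%) and 109 lower (2.92%).

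The largest ratio was that of *Sh3bgr*, which encodes a protein related to thioredoxins. It ran from 0 through a median of 1.23 to 4.92 UMIs per 10000 in the Runx1-positive Calb2-high iCKO neurons (mean 1.36 ± 1.06), and its mean was 0.219 ± 0.439 in the intermediate-Calb2 control neurons, a log2 ratio of 2.39 (interval 2.33 to 2.85). Other iCKO cells had similar means, at 1.44 in the Runx1-negative Calb2-high neurons, 1.20 in the intermediate-Calb2 neurons and 1.71 in the cells with *Lypd1* at 1 or more UMIs per 10000. It averaged 0.193 in control cells with that much *Lypd1* and 0.947 in Calb2-high control neurons, so *Sh3bgr* was not particular to the Runx1-positive neurons. *Mdga1*, a membrane-anchored regulator of synapse adhesion, ran from 1.2 through a median of 9.05 to 15.7 and averaged 9.13 ± 3.26, against 2.42 ± 1.92, a log2 ratio of 1.90 (1.88 to 2.05). *B3gat1*, the glucuronyltransferase of the HNK-1 glycan, averaged 1.80 ± 0.852 against 0.542 ± 0.54 (1.64, 1.58 to 1.94). *Gnao1*, a G protein alpha subunit, had a log2 ratio of 1.64. *Nrip3* had one of 1.77, but of 0.86 in low-myelin and 0.72 in Y-linked cells, both under 2-fold, and of 2.09 in high-myelin cells. *Mdga1* was also 9.14 ± 2.77 UMIs per 10000 in the Calb2-high control neurons, so for this gene the floxed neurons stood at the control level of their *Calb2* class. *B3gat1* averaged 1.46 in Calb2-high control and 1.91 in Runx1-negative neurons, and *Gnao1* 0.696 and 0.748. Their higher levels were thus not particular to the Runx1-positive neurons. *Nrip3*, at 0.520 in the Runx1-positive neurons, averaged 0.283 and 0.418 in the same 2 sets.

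On the lower side were *Ttn* (titin, listed with the Ib markers, log2 ratio -2.22), *Btbd9*, *Cpne6* (a copine, -1.87), *Kcnip2* (an auxiliary subunit of potassium channels, -1.51) and *Slc17a6* (-1.33, interval -1.56 to -1.26). *Gldn*, which encodes gliomedin, averaged 0.806 ± 0.749 UMIs per 10000 against 2.26 ± 1.12, a log2 ratio of -1.43. Its level in the Runx1-positive neurons moved with myelin RNA, at 0.354 in low-myelin and 1.10 in high-myelin cells. The log2 ratios within these classes were -2.00 and -1.09. *Calb1*, at 0.966 ± 1.19 in these control neurons, had a log2 ratio of 0.86 (0.66 to 0.95), and *Ntng1*, at 1.95 ± 0.994, one of -0.89 (-1.09 to -0.80). *Gm1821*, a pseudogene whose reads may belong to ubiquitin gene copies, had a log2 ratio of -4.41. It averaged 0.368 ± 1.62 UMIs per 10000 in the Runx1-positive and 0.268 ± 1.16 in the Runx1-negative Calb2-high iCKO neurons, against 8.85 ± 3.58 and 8.66 ± 3.66 in the control sets, so the libraries differed and the sets within them did so less. In the Runx1-positive neurons it averaged 0.0240 in the 116 cells with *Xist* RNA and 1.44 in the 31 with Y-linked RNA, with log2 ratios of -7.04 and -2.49 against intermediate-Calb2 control neurons of the same class, and 4.70% of the 149 held 5 or more UMIs. Its value is uncertain, and whether strain or read assignment differed between the libraries was not tested.

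Beside these values, myelin RNA moved with the library. All 5 of the Schwann or satellite glia genes ranked here were at least 1.5-fold lower than in the intermediate-Calb2 control neurons, against 2.92% of all 3738 ranked genes. The summed level of the 8 listed glial genes had a median of 21.1 UMIs per 10000 in the Runx1-positive Calb2-high iCKO neurons (range 0 to 53.6) and 41.8 in the intermediate-Calb2 control neurons (range 0 to 140). No defining glial marker of that list was at 0 in either set. Cells with *Xist* and no Y-linked RNA were also 116 of 149 against 51 of 139. The part of glial RNA, depth and sex in the differences between libraries was not tested. Directions were recomputed within cell classes for the 12 highest and 12 lowest ratios. These were picked over the same cells that the classes divide, so a kept direction is a description only. All 24 of this comparison kept their direction in *Xist* cells, in Y-linked cells and in cells with low or high myelin RNA. Against the Runx1-negative neurons all 24 did so in *Xist* cells, 23 in cells with low myelin RNA (not *Ahnak*) and 21 in Y-linked cells, of which the reference held 5 (not *Btbd9*, *Sncg* and *Afap1l1*).

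The last comparison was with Calb2-high control neurons. Of 3667 ranked genes, 3 were at least 2-fold higher and 3 at least 2-fold lower (0.0818% each), and the central 95% of log2 ratios ran from -0.46 to 0.43. The higher genes were *Calb1*, *Ntng1* and *1700026D08Rik*. *Calb1* averaged 0.0949 ± 0.308 UMIs per 10000 in the Calb2-high control neurons and its log2 ratio was 3.67 (3.82 to 4.76 for the summed UMIs). *Ntng1* averaged 0.127 ± 0.32 and its ratio was 2.60 (2.59 to 3.41). Under 2-fold, *Fbll1* came next at 0.89 and *Slc17a6* after it at 0.88, and further down the order *Cpne9* had a ratio of 0.84 and *Cib2* one of 0.73. The *Slc17a6* ratio came to 1.73 within *Xist* cells but to 0.13 among Y-linked ones. The lower genes included *Gm1821* (-4.38) and the microRNA gene *Mir6236* (-1.08). *Rxrg*, at 0.632 ± 0.501 in the control, had a log2 ratio of -0.57 (-0.88 to -0.35), which was -0.28 in *Xist* and -1.47 in Y-linked cells.

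At 1.5-fold, 35 genes were higher (0.954%) and 30 lower (0.818%) than in the Calb2-high control neurons. Of the 4 glial genes ranked in this comparison, 3 were at least 1.5-fold lower, and their part was again not tested. In Y-linked cells 19 of the 24 extreme ratios kept their direction, and *S100a10*, *Nrip3*, *Mir6236*, *Rn45s* and *Hddc3* did not. Against the Runx1-negative neurons of the same library, 0 of 4 glial genes were past 1.5-fold, with log2 ratios from -0.24 to -0.040. Over all ranked genes of that comparison, 0.467% were higher and 0.22% lower at 1.5-fold. A list of 4 genes is too small to set against these shares, and the part of glial RNA was not tested there either.

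The position of the floxed neurons between the control sets was read from 40 control subtype genes. These had at least a 2-fold ratio between Calb2-high and intermediate-Calb2 control neurons, chosen in control cells alone and without *Calb2*, *Lypd1* and *Runx1*. The Runx1-positive Calb2-high iCKO neurons were nearer to the Calb2-high control level for 28 of the 40 genes (70%) and the Runx1-negative ones for all 40. The former were nearer for 13 of the 15 genes that are higher in Calb2-high control neurons, and for 15 of the 25 that are lower there. The 10 of those 25 that lay nearer to the intermediate level were *Ntng1*, *Calb1*, *Hsd17b14*, *Gm4980*, *Rab15*, *Pcsk2*, *Cpne9*, *Adgrl2*, *S100a10* and *Cib2*. Beyond the Calb2-high control mean lay 8 genes, *Sh3bgr*, *B3gat1*, *Tmem229b*, *Gnao1*, *Mturn*, *Cd302*, *Gldn* and *Kcnip2*. In the intermediate-Calb2 iCKO neurons 2 of the 40 genes, *Sh3bgr* and *Mturn*, were nearer to the Calb2-high control level. *Calb2* split these control sets, and the rule used the same *Calb2* threshold for both iCKO sets. Nearness to the Calb2-high control level is therefore partly set by the rule, and the counts are a description. The same control cells also chose and placed these genes. With genes chosen in alternate control cells and placed by the others, the share was 65.7% of 35 genes for the Runx1-positive and 94.3% for the Runx1-negative neurons. In *Xist* cells the shares were 70% and 87.5% of 40 genes, and in Y-linked cells, 5 of them Runx1-negative, 64.2% and 81.1% of 53.

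**Figure D4:**
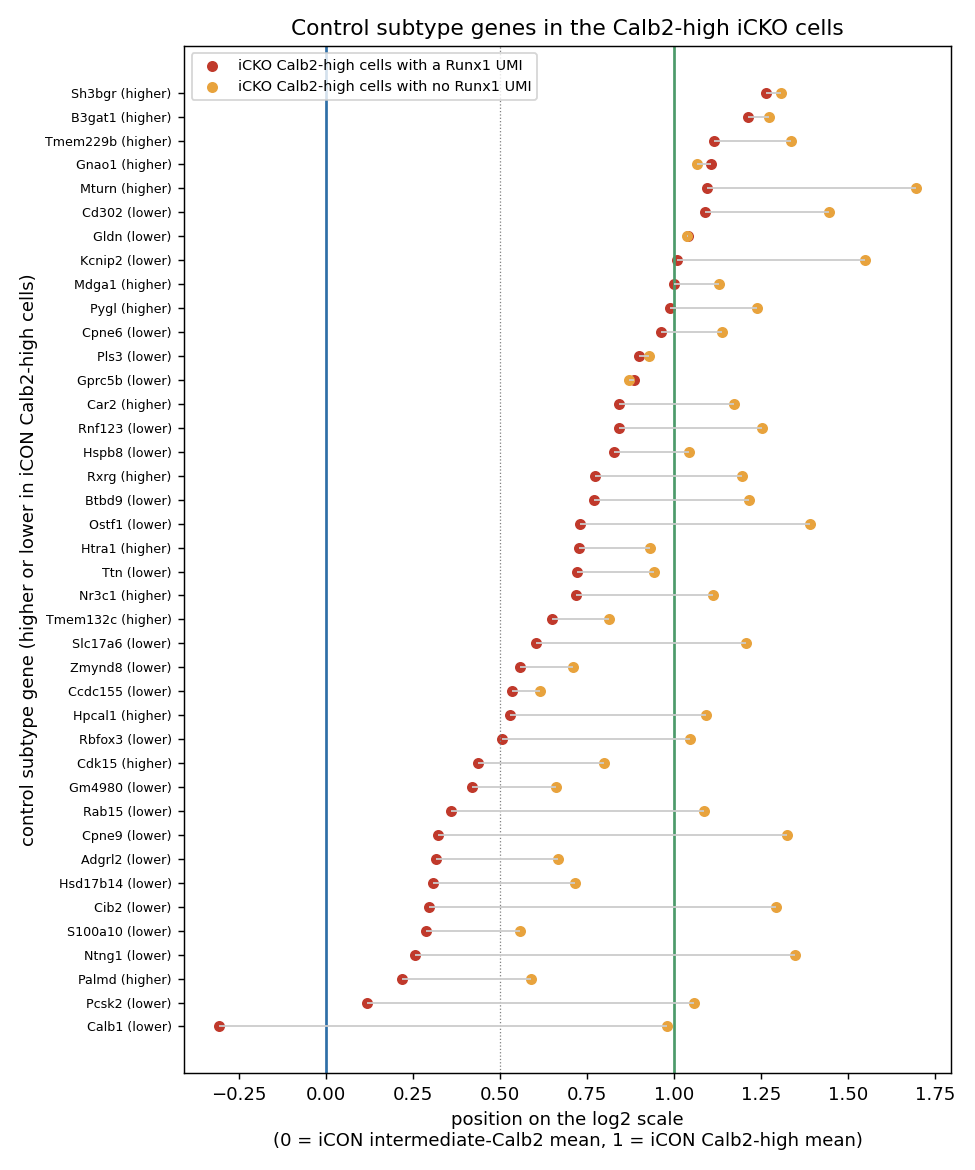
Position of 40 control subtype genes in Calb2-high iCKO neurons with (red) and without (orange) *Runx1* RNA, on a log2 scale on which 0 is the mean of intermediate-Calb2 and 1 that of Calb2-high control neurons. Red points lie right of 0.5 for 28 genes and orange points for 40. *Calb1* is the gene whose red point lies left of 0.

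Cell by cell the picture was mixed. By Spearman's correlation over these genes, 113 of the 149 Runx1-positive Calb2-high iCKO neurons (75.8%, 68.2 to 82.5%) were more like the Calb2-high control mean, and 36 were more like the intermediate mean. All 52 Runx1-negative neurons, 80 of 85 Calb2-high control neurons and 3 of 139 intermediate-Calb2 control neurons were more like the Calb2-high mean. The control cells chose these genes and make up both means, so the counts of the control sets are largely set in advance. Those of the iCKO sets are partly set by the *Calb2* threshold of the rule. The 36 neurons had on average 2.69 *Calb1*, 1.69 *Ntng1* and 155 *Calb2* UMIs per 10000, against 1.51, 0.814 and 215 in the 113. *Mdga1* averaged 7.33 in the 36, of which 13 were *Btbd9*-high as described below, and 9.71 in the 113, of which 2 were. *Calb1*, *Ntng1*, *Mdga1* and *Btbd9* are among the 40 genes that sorted the cells, and the rule used *Calb2*, so these differences are descriptions.

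The same counts were made by *Calb2* class, as a description, since *Calb2* chose the neurons and also defined the control sets from which the 40 genes came. Among neurons with 100 to under 150 *Calb2* UMIs per 10000, 14 of 31 were more like the Calb2-high control mean. The counts were 27 of 42 from 150 to under 200, 39 of 43 from 200 to under 250 and 33 of 33 at 250 or more. *Ntng1* averaged 1.62, 1.23, 0.951 and 0.293 UMIs per 10000 in the same classes, and *Calb1* 1.69, 2.51, 1.89 and 0.858. In the highest *Calb2* class *Calb1* was thus still above the 0.0605 of the 23 Runx1-negative neurons of that class. *Rxrg* averaged 0.335, 0.276, 0.452 and 0.588 in the Runx1-positive neurons of the same classes. The Runx1-negative neurons numbered 3, 8, 18 and 23 in them, so both iCKO sets were spread differently over *Calb2*.

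*Btbd9*, which encodes a BTB-domain protein, fell into separate ranges of level. It was at 5 or more UMIs per 10000 in 15 of the 149 Runx1-positive Calb2-high iCKO neurons (10.1%, 5.74 to 16.1%) and in 0 of the 52 Runx1-negative ones, which allows a share of up to 5.77%. It was that high in 137 of 139 intermediate-Calb2 control neurons and in 5 of 85 Calb2-high control neurons. In other cells, it was that high in 44 of 52 intermediate-Calb2 iCKO neurons (84.6%). Among cells with *Lypd1* at 1 or more UMIs per 10000, it was that high in 52 of 146 iCKO (35.6%) and 195 of 206 control cells (94.7%). Of these cells with *Lypd1*, 26 of the 146 and 1 of the 206 also had *Calb2* of at least 100 UMIs per 10000. Both ranges were therefore also present in other iCKO cells. Between 4 and 6 UMIs per 10000 lay 1 of the 149. The limit of 5 was chosen after the values were seen. The median of *Btbd9* over the Runx1-positive neurons was 0.967, so its mean of 2.26 ± 3.93 and its log2 ratios of 1.32 against the Runx1-negative and -2.29 against the intermediate-Calb2 control neurons moved to 0.23 and -3.37 without these 15 cells.

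The 15 *Btbd9*-high neurons also differed in other genes. *Mdga1* averaged 3.15 ± 1.54 UMIs per 10000 in them and 9.80 ± 2.67 in the other 134. *Slc17a6* averaged 2.42 ± 1.44 against 0.723 ± 1.07, *Sh3bgr* 0.393 ± 0.619 against 1.47 ± 1.05 and *Calb2* 141 ± 27.1 against 207 ± 55.5. *Calb1*, at 1.41 ± 1.56 and 1.84 ± 2.02, and *B3gat1*, at 1.62 ± 0.898 and 1.82 ± 0.848, overlapped widely. Of the 15, 14 held *Xist* and no Y-linked RNA, as did 102 of the other 134, and 11 had *Calb2* under 150, as did 20 of the 134. *Mdga1* and *Btbd9* both lie on the minus strand of chromosome 17, at 29827949 to 29970087 and 30215524 to 30576488, with 245 kb between them. Without the 15 cells the counts past 2-fold were 8, 30 and 5 against the Runx1-negative, intermediate-Calb2 control and Calb2-high control neurons, in place of 9, 32 and 6.

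**Figure D5:**
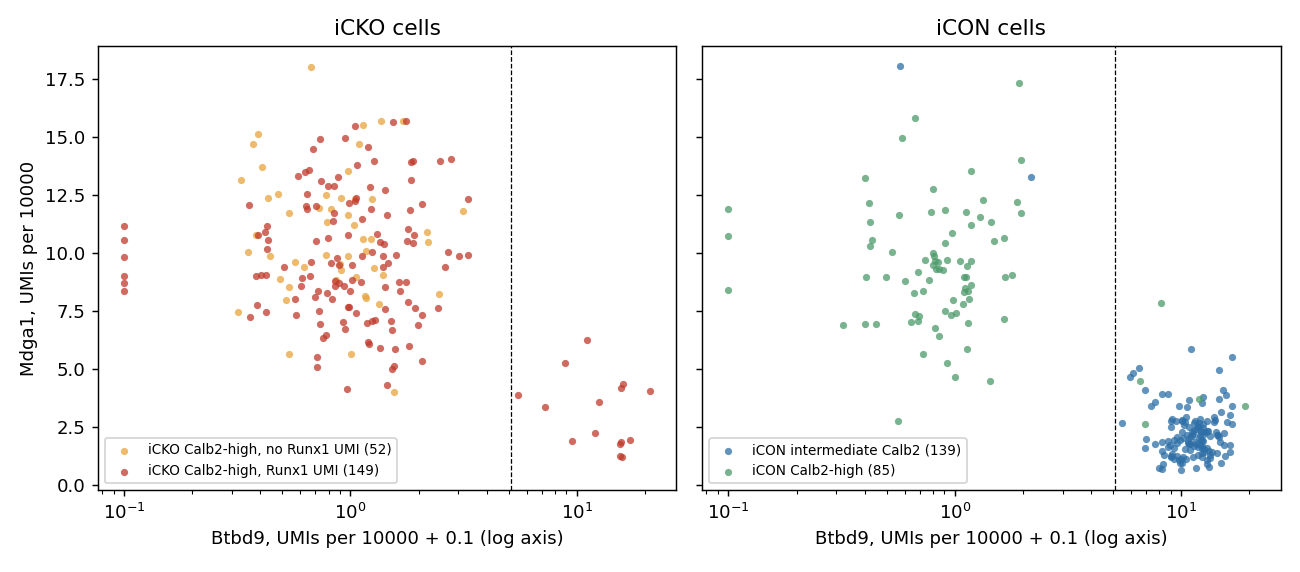
*Mdga1* against *Btbd9* in each cell, both in UMIs per 10000, with *Btbd9* on a log axis and a dashed line at 5. Left, Calb2-high iCKO neurons with and without *Runx1* RNA. Right, intermediate-Calb2 and Calb2-high control neurons. Of the 149 Runx1-positive neurons 15 lie right of the line, where *Mdga1* averages 3.15, and the others lie left of it with the Calb2-high control neurons.

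Gene groups were then read by their members. Among *Runx1* partners, *Cbfb* averaged 0.235 ± 0.234 UMIs per 10000 in the Runx1-positive Calb2-high iCKO neurons, 0.232 ± 0.287 in the Runx1-negative, 0.43 ± 0.356 in the intermediate-Calb2 control and 0.205 ± 0.211 in the Calb2-high control neurons. It stayed under the mean required for ranking in each set. *Aes*, a Groucho-related corepressor, averaged 8.59 ± 1.9, 7.15 ± 1.94, 7.31 ± 1.72 and 6.38 ± 1.4 in the same order. *Runx2* was near 0 in each set.

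Of the subtype markers not yet described, *Pou4f1*, the Brn3a transcription factor of Ic neurons, averaged 0.108 ± 0.216 UMIs per 10000 in the Runx1-positive Calb2-high iCKO neurons and was detected in 26.8% of them. It averaged 0.0244 ± 0.077 in the Runx1-negative, 0.12 ± 0.181 in the intermediate-Calb2 control and 0.00527 ± 0.0278 in the Calb2-high control neurons. The interval of the log2 ratio of summed UMIs was 0.68 to 3.67 against the Runx1-negative and 2.32 to 6.27 against the Calb2-high control neurons. Against the intermediate-Calb2 control neurons it was -0.77 to 0.28. *Lrrc52*, listed for Ib, averaged 0.0671 ± 0.166, against 0.111 ± 0.183 in the intermediate-Calb2 control neurons, and *Grm8* was detected in 4.03% of the neurons. All 3 genes were under the level required for ranking.

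Among calcium buffers and sensors, 10 genes were ranked against the Runx1-negative neurons. At 1.5-fold *Calb1* was higher and *Hpcal1* lower, and the list's median log2 ratio was 0.091 against 0.00479 for all ranked genes. Over all ranked genes 0.467% were higher and 0.22% lower at 1.5-fold. The counts per list are too small to set against these shares. Of 21 genes of transmitter release, *Slc17a6* was higher and *Sncg*, gamma-synuclein, lower. *Kcns3* was the only one of 15 potassium channel genes past 1.5-fold, none of 9 sodium, HCN and calcium channel genes was, and none of 20 neurofilament and cytoskeleton genes was. Of 9 transcription factors of sensory neurons *Rxrg* alone was past 1.5-fold, and of 14 synaptic adhesion genes *Ntng1* alone.

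Against the intermediate-Calb2 control neurons, where 1.55% of ranked genes were higher and 2.92% lower at 1.5-fold, the same lists were counted. Higher and lower were 2 and 0 of 9 calcium buffers and sensors, 1 and 2 of 22 genes of transmitter release, 1 and 1 of 16 potassium channel genes, and 2 and 0 of 9 sodium, HCN and calcium channel genes. They were 1 and 1 of 9 transcription factors, 1 and 2 of 15 synaptic adhesion genes and 1 and 0 of 20 neurofilament and cytoskeleton genes. *Slc17a7*, the vesicular glutamate transporter VGLUT1, averaged 8.29 ± 1.91 UMIs per 10000 against 5.23 ± 1.44, while *Slc17a6* was lower, as given above. *Slc17a7* was at 8.27 in the Runx1-negative Calb2-high iCKO, 6.59 in the intermediate-Calb2 iCKO and 6.68 in the Calb2-high control neurons. Among cells with *Lypd1* at 1 or more UMIs per 10000, it averaged 6.52 in iCKO and 4.51 in the control. Its higher level was thus not particular to the Runx1-positive neurons. *Hcn2*, a hyperpolarization-activated channel, averaged 3.09 ± 1.11 against 1.78 ± 0.773 in the intermediate-Calb2 control neurons. *Hcn2* was at 2.31 ± 1.09 in the Calb2-high control neurons and at 2.74 ± 1.11 in the intermediate-Calb2 iCKO neurons, so its mean was above both control sets in both of these iCKO sets. The part of the library in such a gene cannot be told apart from the genotype.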

How the data were processed

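The authors deposited a table of natural log values of 1 plus CPM for 14425 genes in 869 cells, and a text label that puts each cell in a library. Cell Ranger, Seurat and the build mm10 are named in the submitters' processing notes, and their settings and filters are not given in the sources used here. The unit was settled from the values. Linear values summed to 1000000 in each cell, and 100% of them were whole multiples, within 1e-06, of the smallest step, so UMI counts were recovered. Columns without a library numbered 0.

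Levels are means over cells of UMIs per 10000. Ratios are log2 with a pseudocount of 0.05, for genes that reached a mean of 0.5 and 25% of cells in the same set. Intervals are exact at 95% (Poisson for ratios of summed UMIs, Clopper-Pearson for shares) and cover counting error only. Limits on a count of 0 use 3 counts. Thinning drew 20000 UMIs per cell. With 1 library per genotype no test was run and no p-value computed. Doublets were called with Scrublet in scanpy 1.11.5, which marked 4 iCKO cells (2 of them among the 149 neurons) and 1 iCON cell, all of which were kept. The scripts ran on Python 3.11.15 with numpy 2.4.6, pandas 2.3.3 and scipy 1.17.1, and the ratios were tested on simulated data.

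The members, lists and comparisons were chosen with earlier results of these data known. Named genes are the 12 highest and 12 lowest ratios of each comparison, the subtype and *Runx1* partner lists, up to 4 of each other list and up to 10 control subtype genes. Some of these genes are not reported here. Positions are from GENCODE M21 (GRCm38), where 190 of 193 named genes matched. The alternatives covered the pseudocount, floor, depth, averaging, thresholds, sex-linked RNA, myelin RNA and doublets.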

Additional observations from a re-analysis of the deposited data

Results flagged for a closer look

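A signal appeared in cells that the comparisons left out. Of the 146 iCKO cells with *Lypd1* at 1 or more UMIs per 10000, 26 also had *Calb2* of at least 100 per 10000, or 17.8% (exact interval 11.98 to 24.99%). In the control library 1 of 206 such cells did, or 0.485% (0.0123 to 2.67%). All 26 held a *Runx1* UMI, as did 142 of the 146 (97.3%). These cells missed the rule for the Runx1-positive Calb2-high iCKO neurons only by their *Lypd1*, and the difference between the libraries was not tested.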

How the results depend on the processing

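Counts of genes past 2-fold moved with the floor, the pseudocount, the fold and some cell classes. In the order Runx1-negative, intermediate-Calb2 control and Calb2-high control neurons (9, 32 and 6 genes), a pseudocount of 0.5 gave 3, 11 and 3, a floor of 0.1 and 5% of cells gave 24, 74 and 30, 1.5-fold gave 25, 167 and 65, and cells with Y-linked RNA gave 220, 91 and 33, with 5 Runx1-negative cells in the first. Against the Calb2-high control neurons, *Xist* cells gave 13 and low-myelin cells 11. High-myelin cells gave 6, 29 and 6 in the order above. The share of Calb2-high iCKO cells with *Runx1* RNA (74.1%) was 64.7% after thinning, 86.1% in Y-linked cells and 59.7% with at least 2 UMIs required. The share of control subtype genes stayed between 62.5% and 72.5% in the alternatives run, against 70%. Of the named ratios past 2-fold, *Btbd9* against the Runx1-negative neurons reversed to -0.066 and *Mir6236* against the Calb2-high control neurons to 0.098, both in Y-linked cells; the cause was not tested. Named ratios under 2-fold also changed sign, against the Runx1-negative neurons *Sncg* and *Afap1l1* in Y-linked and *Ahnak* in low-myelin cells, and against the Calb2-high control neurons *S100a10*, *Nrip3*, *Rn45s* and *Hddc3* in Y-linked and *S100a6* in low-myelin cells. Leaving out *Btbd9*-high neurons, or cells with 5 or more *Gm1821* UMIs, was chosen after seeing the data. No paired analysis was possible because each genotype has 1 library. Depth limits genes under 0.5 UMIs per 10000.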

Other observations

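Calb2-high control neurons were also split by *Runx1* RNA. The 37 control neurons with a *Runx1* UMI averaged 0.120 *Calb1* UMIs per 10000 and the 48 without one 0.0752, a log2 ratio of 0.44 whose counting interval, -0.58 to 1.34, includes 0. *Ntng1* averaged 0.226 and 0.0509 (log2 ratio 1.45 with the pseudocount, and an interval of 1.39 to 3.54 for the ratio of summed UMIs, which has none), *Btbd9* 2.16 and 0.802, and *Slc17a6* 0.655 and 0.318. Over all 85 Calb2-high control neurons the median of *Btbd9* was 0.805, and 5 of them held 5 or more UMIs per 10000. A mean of this gene can therefore rest on few cells. Of 3671 ranked genes, 1 was at least 2-fold higher and 6 lower in the control neurons with *Runx1* RNA. Their *Runx1* reached 5 UMIs per cell at most, so the classes of higher *Runx1* were not filled in the control.

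The 52 iCKO neurons with intermediate *Calb2* held *Runx1* RNA in 98.1% of cells and resembled the intermediate-Calb2 control neurons in *Btbd9* (12.4 ± 5.93 UMIs per 10000) and *Gldn* (2.46 ± 1.45), while their *Sh3bgr* (1.2 ± 1.09) was near that of the Runx1-positive Calb2-high iCKO neurons. By the control subtype genes, 4 of the 52 were more like the Calb2-high control mean.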
